A study of Homo sapiens with 16 samples.

Results

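The 9 genes described here belong to the NRF2 pathway of the oxidative stress response: HMOX1, NQO1, GCLM, GCLC, TXNRD1, SRXN1, NFE2L2, KEAP1 and TXN. They were taken by gene symbol, and all 9 were found among the 23597 genes of the RNA table and the 19201 genes of the ribosome footprint table. Each of the 9 also passed the filter on low counts in both assays. The cells were WI-38, a line of human lung fibroblasts with a limited number of divisions, either senescent (passage 36) or young (passage 24). Heat-shocked cells were held for 2 h at 44 °C, as the labels' 440C was read, control cells were not, and every culture had first been starved of serum for 24 h and then refed for 24 h. RNA-seq measured transcripts, and Ribo-seq measured footprints, the stretches of mRNA covered by ribosomes. Each assay had 2 libraries in each of 4 groups (senescent heat shock, senescent control, young heat shock, young control), which gives 16 libraries in all. The labels do not say whether the numbered replicates came from separate cultures, so p-values measure the spread between these libraries. WI-38 is 1 line, and every group comes from it.

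NFE2L2 encodes NRF2, a transcription factor that KEAP1 holds in the cytoplasm and marks for destruction while the cell is unstressed. When reactive compounds modify KEAP1, NRF2 enters the nucleus, pairs with small MAF proteins and binds antioxidant response elements near its target genes. Among those targets are the glutathione-making enzyme subunits GCLC and GCLM, the thioredoxin system (TXN, TXNRD1, SRXN1), the quinone reductase NQO1 and HMOX1, which breaks down heme and is also a heat shock gene.

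RNA libraries held 26434514 to 37126871 counts and footprint libraries 4581141 to 9104077. HSPA1A, the inducible HSP70 gene, checked the treatment: its RNA rose on heat shock by 7.34 ± 0.34 (log2, SE) in senescent and by 8.06 ± 0.35 in young cells (edgeR adjusted p = 7.56e-05 and 5.07e-05). All 8 fibroblast markers had at least 1 TPM in every RNA library and summed to 9934 to 15139 TPM, whereas 0 of 5 leukocyte markers did so, with sums of 0.23 to 0.85 TPM. Of the epithelial markers 3 of 6 did (sums 133 to 224 TPM), and of the endothelial ones 1 of 4 (12.4 to 25.0 TPM). CDKN1A, a cell cycle inhibitor of senescent cells, differed in RNA by 0.95 ± 0.28 between senescent and young control cells (edgeR adjusted p = 0.432, with the block 0.0148), and LMNB1, a lamin lost in senescence, by −1.23 ± 0.49 (0.653, with the block 0.0621). The young control footprint libraries were closer to each other than any other pair. Their counts differed with a chi-square per degree of freedom of 1.73, against 17.2 to 38.7 in the other footprint groups and 67.5 to 105 in the RNA groups. They differed by somewhat more than sampling noise and were kept as 2 libraries, as labelled, but they may be runs of 1 library. The young control footprint group would then have n = 1, which bears on each footprint and efficiency value, since the spread is shared. With them summed as 1 sample, the genes called on heat shock in footprints numbered 240 in place of 943 in senescent cells and 26 in place of 130 in young cells. Values for single libraries are given below as CPM, counts scaled to library size with TMM factors, replicate 1 before replicate 2.

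Levels per transcript length (TPM, the deposited transcript abundance scaled by gene length) ran over more than an order of magnitude among the 9 genes. TXN, the small redox protein thioredoxin, was the most abundant transcript in each group, with group means from 522 to 698 TPM. NQO1 followed with 284 to 341 TPM and TXNRD1, the reductase of thioredoxin, with 119 to 203 TPM. In young control cells the order below these was SRXN1 at 83.0 ± 2.63 TPM, NFE2L2 at 71.6 ± 12.3 TPM, KEAP1 at 52.9 ± 11.3 TPM, HMOX1 at 40.1 ± 10.8 TPM, GCLC at 18.6 ± 2.55 TPM and GCLM at 15.2 ± 2.91 TPM (SD, n = 2 each). The 2 libraries of KEAP1 overlapped those of HMOX1 there, and those of GCLC overlapped those of GCLM. After heat shock HMOX1 averaged 71.5 TPM in senescent and 71.8 TPM in young cells, above the means of SRXN1, NFE2L2 and KEAP1, although its young libraries overlapped those of NFE2L2 (69.4 TPM).

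Footprint TPM gave another order, and the 9 genes carried unequal footprint levels for their RNA. In young control cells the mean footprint TPM divided by the mean RNA TPM was 4.05 for GCLM and 3.81 for TXN, against 0.443 for KEAP1 and 0.433 for SRXN1. In heat-shocked senescent cells the same ratio was 6.67 for TXN, 5.04 for GCLM, 3.10 for NQO1, 1.97 for TXNRD1, 0.454 for SRXN1 and 0.30 for KEAP1. GCLM, the regulatory subunit of glutamate-cysteine ligase, thus had the lowest mean RNA TPM of the 9 genes in control cells of either state. Its footprint TPM there was above those of GCLC, SRXN1, KEAP1 and HMOX1. The length scaling of a gene differed between the 2 assays, so these ratios depend on it too. Without length scaling, GCLM in young control cells averaged 49.1 CPM in footprints and 35.1 CPM in RNA. SRXN1 averaged 12.8 CPM in footprints and 102 CPM in RNA there.

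**Figure D1:**
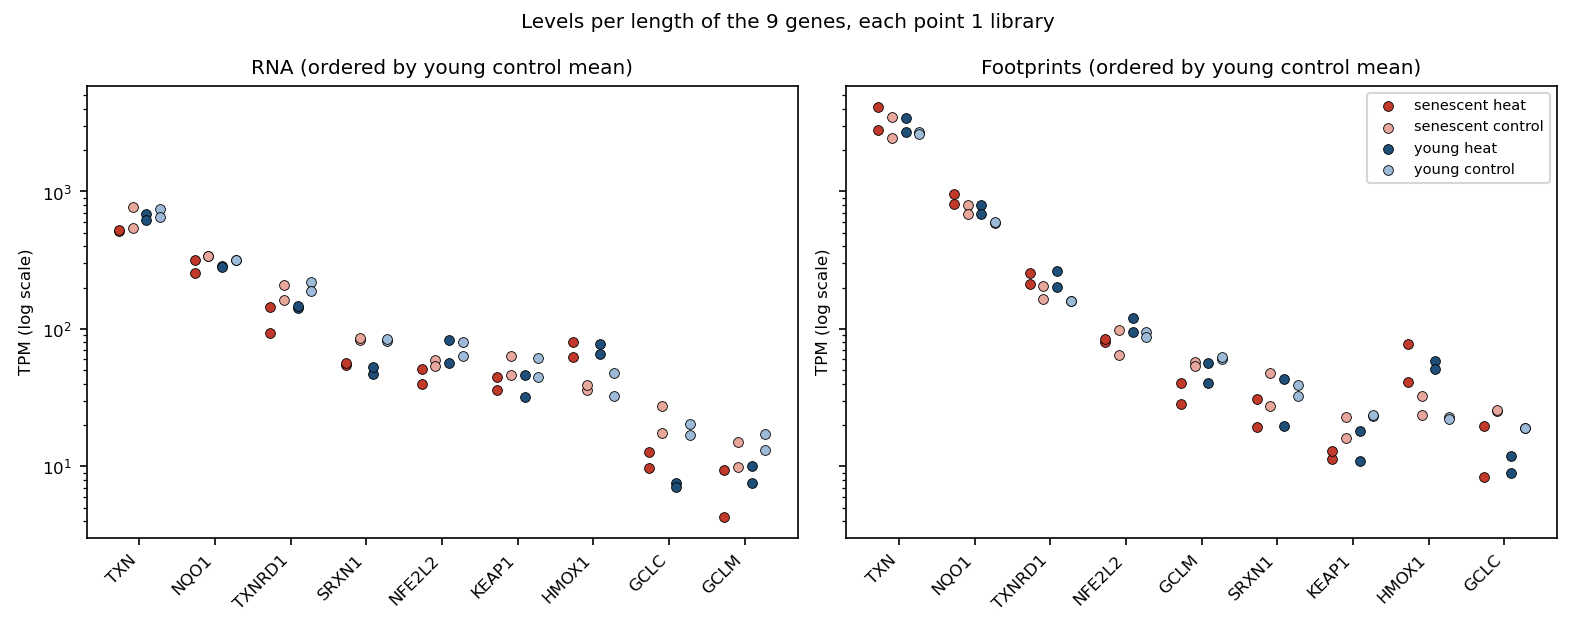
TPM of the 9 genes in RNA (left) and footprints (right), on a log axis; each point is 1 library and colours mark the 4 groups. TXN and NQO1 lie highest in both panels, and HMOX1 is the gene whose heat-shocked libraries all lie above its control libraries in RNA and in footprints.

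HMOX1 had more RNA and more footprints in every heat-shocked library than in any control library of the same state. Its RNA stood at 51.9 and 79.5 CPM in heat-shocked senescent cells, against 27.6 and 31.2 CPM in senescent control cells. In young cells HMOX1 RNA stood at 64.2 and 58.4 CPM after heat shock, against 33.0 and 23.9 CPM in controls. The heat-shocked groups overlapped each other, as did the control groups, while no heat-shocked library overlapped a control library. In such bulk libraries, more cells with a transcript and more of it per cell cannot be told apart. The fitted change was 1.16 ± 0.27 in senescent cells (log2, SE; 2.23-fold; edgeR adjusted p = 0.168) and 1.11 ± 0.27 in young cells (2.15-fold; adjusted p = 0.134), neither past the threshold of 0.05. Same-numbered RNA libraries deviated together, and with the replicate number as a block HMOX1 RNA passed in both states (adjusted p = 0.0275 in senescent and 0.0247 in young cells); DESeq2 also called both (adjusted p = 0.0105 and 0.0143).

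In footprints HMOX1 rose in senescent cells, where it held 41.5 and 89.8 CPM after heat shock, against 28.1 and 20.4 CPM in controls. That change was 1.43 ± 0.35 (log2, SE; 2.70-fold; edgeR adjusted p = 0.0428; DESeq2 0.00342). Young cells had 58.1 and 48.3 CPM after heat shock, against 19.4 and 18.6 CPM in controls, a change of 1.48 ± 0.35 (2.80-fold; adjusted p = 0.0875; DESeq2 0.00426). The young libraries lay closer together. The difference of the 2 changes was −0.05 ± 0.49 (edgeR adjusted p = 0.988). The senescent call was close to the threshold: it was kept without senescent heat shock replicate 1 (adjusted p = 0.00631) and lost without any other 1 of the 8 footprint libraries, with adjusted p up to 0.168 and a change of 0.73 without senescent heat shock replicate 2. It was also lost with library size alone (adjusted p = 0.0589) and with the young control libraries summed (adjusted p = 0.0856, and 0.566 for the young change). The young change, in turn, passed without either senescent heat shock library (adjusted p = 0.0219 and 0.0227).

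No RNA of the 9 passed with the unblocked test. In senescent cells 0 of the 9 RNAs passed with edgeR after heat shock, where 0.577% of 13177 genes did (0.364% higher, 0.212% lower). At an unadjusted p below 0.05 there were 2 (8.29% of all genes), and DESeq2 called 1 (2.16%). The replicate block called 1 higher (HMOX1) and 2 lower (GCLC and GCLM), with 6.28% of all genes called (2.66% higher, 3.62% lower). In young cells 0 of 9 passed, against 1.14% of all genes (0.668% higher, 0.471% lower); 3 had an unadjusted p below 0.05 (10.1% of all genes) and DESeq2 called 2 (3.38%). The block called 1 higher (HMOX1) and 2 lower (GCLC and SRXN1), with 8.77% of all genes called (3.64% higher, 5.13% lower). The median change of the 9 RNAs was −0.23 in senescent and −0.17 in young cells (log2), against −0.01 and 0.01 over all genes tested.

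GCLC, the catalytic subunit of glutamate-cysteine ligase, which makes the first step of glutathione synthesis, had less RNA after heat shock. It held 25.9 and 23.6 CPM in heat-shocked senescent cells, against 51.9 and 33.9 CPM in senescent control cells. Young cells had 15.4 and 15.4 CPM after heat shock, against 34.4 and 30.2 CPM in controls. Neither state showed overlap between heat-shocked and control libraries. The change was −0.79 ± 0.25 in senescent cells (log2, SE; adjusted p = 0.361 by edgeR and 0.0353 with the block) and −1.07 ± 0.25 in young cells (adjusted p = 0.122 and 0.00872 with the block; DESeq2 0.00786). GCLC footprints lay lower too, at 45.9 and 21.9 CPM in heat-shocked senescent cells, against 50.0 and 51.5 CPM in controls. The heat-shocked libraries differed widely, and the change of −0.57 ± 0.33 did not pass (adjusted p = 0.283), nor did the young change of −0.66 ± 0.33 (adjusted p = 0.372). The senescent footprint change of GCLC depended on the library: it was −1.25 without senescent heat shock replicate 1 (adjusted p = 0.0188) and −0.19 without replicate 2 (adjusted p = 0.689). Its senescent RNA change ran from −1.07 without senescent control replicate 2 to −0.45 without senescent control replicate 1.

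GCLM RNA stood at 25.5 and 13.6 CPM in heat-shocked senescent cells, against 37.8 and 25.7 CPM in controls. In young cells it stood at 26.9 and 21.7 CPM after heat shock, against 38.8 and 31.5 CPM in controls. The change was −0.70 ± 0.34 in senescent cells (log2, SE; edgeR adjusted p = 0.661, with the block 0.0485) and −0.53 ± 0.34 in young cells (adjusted p = 0.765, with the block 0.0997). The senescent change of GCLM RNA was −1.23 without senescent heat shock replicate 1 and −0.33 without replicate 2. SRXN1, sulfiredoxin, which restores over-oxidised peroxiredoxins, also had lower RNA in each heat-shocked library than in its controls: 77.4 and 95.2 CPM against 110 and 118 CPM in senescent cells, and 67.4 and 79.9 CPM against 96.4 and 107 CPM in young cells. Its change was −0.40 ± 0.20 in senescent cells (edgeR adjusted p = 0.673, with the block 0.0758) and −0.47 ± 0.20 in young cells (adjusted p = 0.459, with the block 0.041). SRXN1 footprints were few, 8.12 to 17.4 CPM over the 8 libraries, and the heat-shocked and control libraries overlapped in both states.

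**Figure D2:**
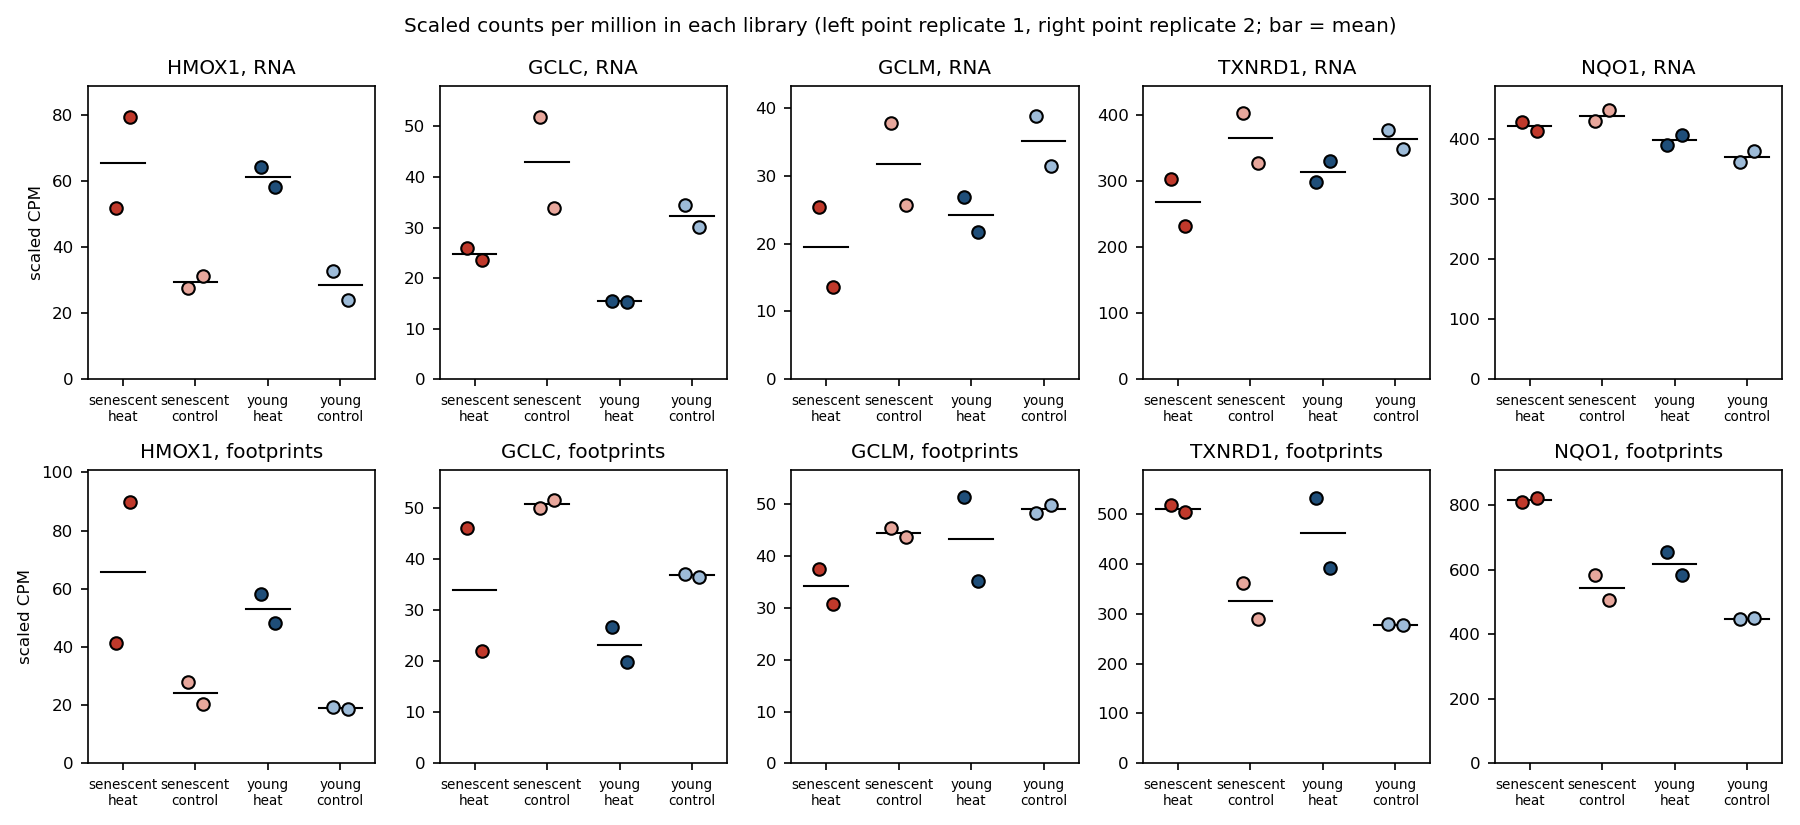
Scaled CPM of 5 genes in each library, RNA above and footprints below; within a group the left point is replicate 1 and the right point replicate 2, and the bar is their mean. Heat-shocked libraries of HMOX1 lie above their controls in both assays, those of GCLC lie below, and those of TXNRD1 lie below in RNA and above in footprints.

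TXNRD1 lay on opposite sides of its controls in the 2 assays. Its RNA stood at 303 and 231 CPM in heat-shocked senescent cells, against 402 and 327 CPM in controls, and at 298 and 330 CPM in heat-shocked young cells, against 377 and 348 CPM in controls. Its footprints stood at 518 and 503 CPM in heat-shocked senescent cells, against 361 and 289 CPM in controls, and at 532 and 392.5 CPM in heat-shocked young cells, against 279 and 277 CPM in controls. Every heat-shocked library thus lay below its controls in RNA and above them in footprints. The RNA change was −0.45 ± 0.21 in senescent and −0.21 ± 0.20 in young cells (log2, SE; edgeR adjusted p = 0.625 and 0.912). The footprint change was 0.65 ± 0.20 in senescent and 0.73 ± 0.20 in young cells (adjusted p = 0.0808 and 0.139). Neither assay alone passed with edgeR without the block, and with it the senescent footprint change passed (adjusted p = 0.0388). DESeq2 called the young footprint change (adjusted p = 0.0457).

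NQO1, which reduces quinones without forming radical intermediates, had similar RNA and higher footprint values after heat shock. Its RNA ranged from 361 to 448 CPM over the 8 libraries, and the change on heat shock was −0.06 ± 0.16 in senescent and 0.10 ± 0.16 in young cells (log2, SE; edgeR adjusted p = 0.969 and 0.957), the young value being −0.18 with library size alone. NQO1 footprints stood at 812 and 824 CPM in heat-shocked senescent cells, against 584 and 506 CPM in controls, and at 655 and 583 CPM in heat-shocked young cells, against 447 and 450 CPM in controls. No heat-shocked library overlapped its controls. The footprint change was 0.59 ± 0.17 in senescent cells (1.50-fold; adjusted p = 0.0661; DESeq2 0.0362) and 0.46 ± 0.17 in young cells (1.38-fold; adjusted p = 0.238).

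TXN carried the most footprints of the 9 genes, at 1230 and 959 CPM in heat-shocked senescent cells, against 894 and 623 CPM in controls. In young cells it had 998 and 762 CPM after heat shock, against 678 and 657 CPM in controls. Heat-shocked libraries lay above their own controls, with changes of 0.53 ± 0.24 in senescent and 0.40 ± 0.24 in young cells (log2, SE; edgeR adjusted p = 0.178 and 0.447). TXN RNA differed by −0.12 ± 0.21 in senescent and 0.17 ± 0.21 in young cells (−0.11 with library size alone), with overlapping groups in senescent cells (adjusted p = 0.938 and 0.939).

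Over the 9 genes, footprint counts gave 1 call in senescent cells, HMOX1, where 8.35% of 11288 genes were called (3.12% higher, 5.24% lower). In young cells 0 of 9 passed, against 1.15% of all genes (0.771% higher, 0.381% lower); 3 had an unadjusted p below 0.05 (16% of all genes) and DESeq2 called 2, HMOX1 and TXNRD1 (3.96% of all genes). In senescent cells DESeq2 called 2, HMOX1 and NQO1, and 13.4% of all genes. The median footprint change of the 9 genes was 0.33 in senescent and 0.36 in young cells (log2), against 0.03 and −0.01 over all genes. Scaled by library size alone, the medians of the 9 genes were 0.04 and 0.09, and those of all genes −0.25 and −0.28.

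The change of footprints beyond RNA, called translational efficiency, was above 0 for 8 of the 9 genes in each state, all except KEAP1. Its median over the 9 was 0.32 in senescent and 0.36 in young cells (log2), against 0.07 and 0.01 over all 11166 genes. TXNRD1 had the highest value in both, 1.10 ± 0.29 in senescent cells (2.14-fold; edgeR adjusted p = 0.0719) and 0.94 ± 0.29 in young cells (1.91-fold; adjusted p = 0.748). Without senescent control RNA replicate 2 the senescent value of TXNRD1 was 1.24 and passed (adjusted p = 0.0488). In senescent cells TXN followed with 0.65 ± 0.32 and NQO1 with 0.64 ± 0.22 (adjusted p = 0.322 and 0.164). HMOX1 had 0.28 ± 0.47 in senescent and 0.37 ± 0.47 in young cells, so its footprints moved by about as much as its RNA within a wide error. With edgeR 0 of 9 passed in senescent cells, where 2.33% of all genes did (0.233% higher, 2.1% lower). An unadjusted p below 0.05 was reached by 2, and by 17% of all genes. DESeq2 called those 2, TXNRD1 (adjusted p = 0.0108) and NQO1 (adjusted p = 0.0314), and 5.77% of all genes. With the replicate number as a block TXNRD1 and NQO1 passed as well (adjusted p = 0.0104 and 0.0468). The block called 1187 of the 11166 genes there. Same-numbered footprint libraries deviated together less (r = −0.05 to 0.37) than same-numbered RNA libraries (r = 0.59 to 0.81). In young cells 0 of 9 passed, against 0.0896% of all genes (0.0358% higher, 0.0537% lower), with 1 at an unadjusted p below 0.05 (4.13% of all genes) and 0 by DESeq2 (0.421%).

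**Figure D3:**
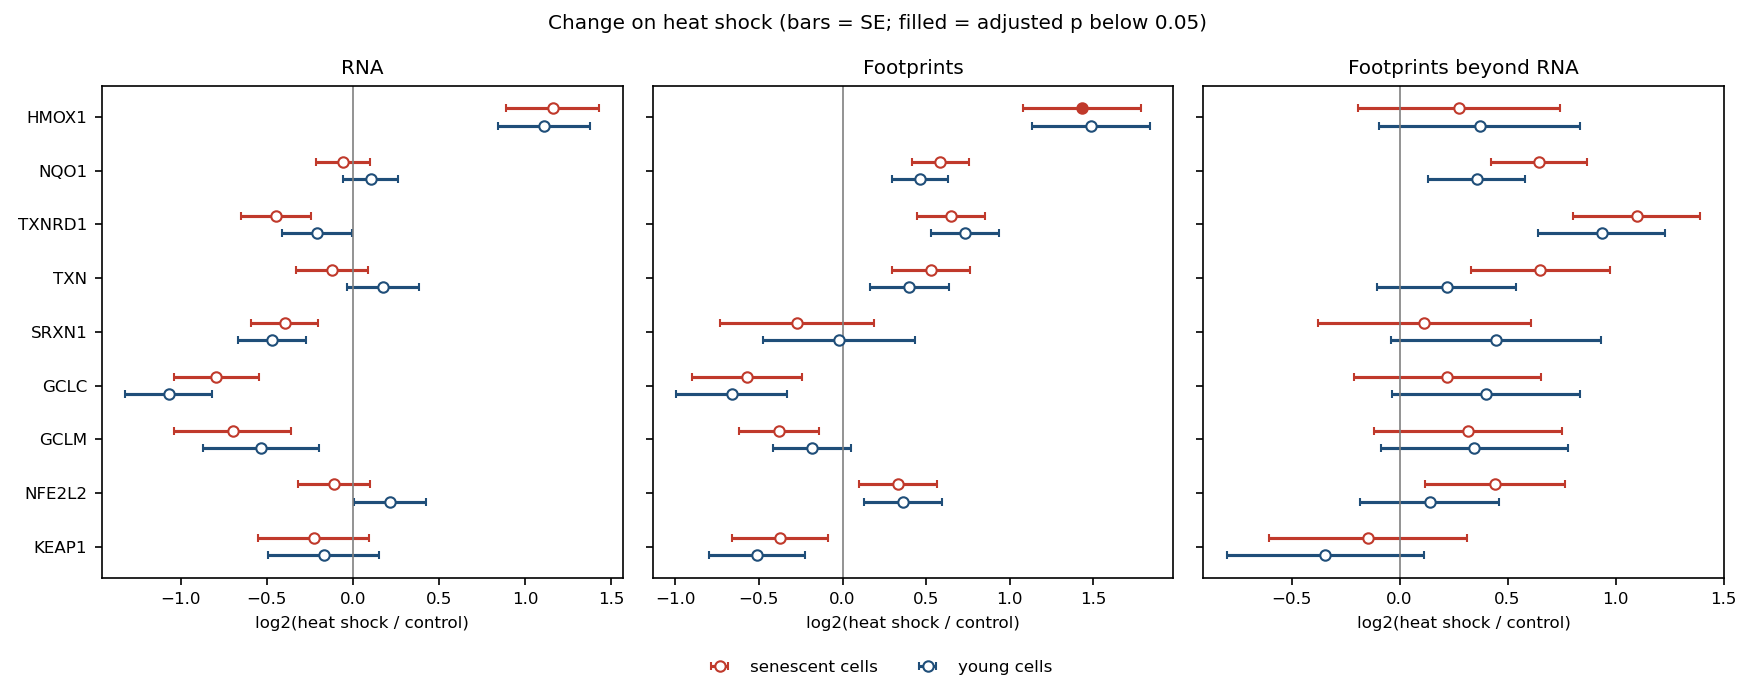
Change on heat shock of the 9 genes in RNA, footprints and footprints beyond RNA, as log2 of heat shock over control with its SE; red is senescent, blue is young, and a filled point passed at adjusted p below 0.05. The 1 filled point is HMOX1 in footprints of senescent cells, and TXNRD1 lies left of 0 in RNA and right of 0 in the other panels.

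NFE2L2 and KEAP1, the factor and its inhibitor, did not pass in either assay. NFE2L2 RNA held 77.8 and 71.4 CPM in heat-shocked senescent cells, against 81.9 and 79.1 CPM in controls, and 124 and 91.3 CPM in heat-shocked young cells, against 100 and 84.8 CPM in controls. The change was −0.11 ± 0.21 in senescent and 0.22 ± 0.21 in young cells (log2, SE; edgeR adjusted p = 0.95 and 0.909), the young value being −0.061 with library size alone. NFE2L2 footprints differed by 0.33 ± 0.23 and 0.36 ± 0.23 (adjusted p = 0.377 and 0.488). KEAP1 RNA was higher in replicate 2 than in replicate 1 of each group, 48.7 and 71.8 CPM in heat-shocked senescent cells, against 58.4 and 82.6 CPM in controls, and 43.5 and 66.8 CPM in heat-shocked young cells, against 50.7 and 73.4 CPM in controls. KEAP1 footprints stood at 26.02 and 34.2 CPM in heat-shocked senescent cells, against 32.3 and 45.4 CPM in controls, and at 24.8 and 39.4 CPM in heat-shocked young cells, against 45.1 and 46.5 CPM in controls. The groups overlapped in senescent but not in young cells. The footprint change of KEAP1 was −0.38 ± 0.29 and −0.51 ± 0.29 in senescent and young cells (adjusted p = 0.421 and 0.423), while those of GCLM were −0.38 ± 0.24 and −0.18 ± 0.23 (adjusted p = 0.323 and 0.76).

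The promoters of these genes were searched for the core of the antioxidant response element, TGACNNNGC or its reverse GCNNNGTCA, and for the paired heat shock unit GAANNTTC, which reads the same on both strands, in the 250 bases before each annotated start. RefSeq windows (GRCh38.p14) were at hand for 8 of the 9 genes, 11 windows in all, the exception being HMOX1. The windows were matched by symbol; the counts come from the build hg19, and no coordinates were moved between builds. The antioxidant core was found in 4 of the 11 windows, in GCLM, TXNRD1 and KEAP1, against 10.9% of all 35116 windows. Sequence farther from the starts was not searched, so a gene without a match may hold the core elsewhere. The heat shock unit was in 0 of the 11, against 5.78% of all windows. With no heat shock unit in these windows, no overlap with the antioxidant core was possible. Windows of 3 genes are shown because they hold the core and because they stand for the glutathione enzyme, the thioredoxin system and the NRF2 inhibitor. They are GCLM at chr1:93909431-93909680 (minus strand), TXNRD1 at chr12:104286782-104287031 (plus strand) and KEAP1 at chr19:10502772-10503021 (minus strand), each 5′ to 3′ on the gene's strand with the core in capitals.
GCLM: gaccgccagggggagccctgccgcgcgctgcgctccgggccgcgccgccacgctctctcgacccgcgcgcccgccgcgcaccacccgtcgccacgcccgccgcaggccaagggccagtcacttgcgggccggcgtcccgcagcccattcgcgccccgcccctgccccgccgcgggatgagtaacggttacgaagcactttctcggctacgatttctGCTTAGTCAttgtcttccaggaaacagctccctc
TXNRD1: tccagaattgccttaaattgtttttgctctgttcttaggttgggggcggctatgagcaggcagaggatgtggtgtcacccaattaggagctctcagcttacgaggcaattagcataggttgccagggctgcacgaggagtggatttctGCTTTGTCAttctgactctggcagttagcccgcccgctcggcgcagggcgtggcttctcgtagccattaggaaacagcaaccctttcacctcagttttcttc
KEAP1: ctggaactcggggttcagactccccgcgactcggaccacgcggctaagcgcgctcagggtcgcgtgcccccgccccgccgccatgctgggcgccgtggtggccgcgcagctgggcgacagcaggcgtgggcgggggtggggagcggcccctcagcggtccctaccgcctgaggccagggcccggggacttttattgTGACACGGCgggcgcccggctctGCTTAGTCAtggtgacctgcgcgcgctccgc
The core lay on the reverse strand 34 bases before the start in GCLM and 102 bases before it in the TXNRD1 window shown. The other TXNRD1 window also held the core, on the forward strand 99 bases before its own start. The KEAP1 window shown had 1 on each strand, 54 and 31 bases before its start, and the other KEAP1 window had 0. The GCLM core GCTTAGTCA is letter for letter the same as the nearer one of KEAP1. A match is a run of letters and was not tested as a binding site.

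No member passed the edgeR test between senescent and young cells. In control cells 0 of 9 RNAs passed with edgeR (0 at an unadjusted p below 0.05, 0 by DESeq2), against 0.0379% of all genes (0.0304% higher, 0.00759% lower). The block called 0 of the 9 and 3.72% of all genes (2.15% higher, 1.57% lower). HMOX1 RNA differed by 0.05 ± 0.27 between senescent and young control cells (log2, SE; edgeR adjusted p = 0.984), and GCLC, at 0.41 ± 0.25, had the widest difference of the 9. Footprints in control cells gave 0 of 9 (0 at an unadjusted p below 0.05, 0 by DESeq2), against 0% of all genes, with HMOX1 at 0.35 ± 0.35.

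Under heat shock, GCLC RNA differed between senescent and young cells by 0.69 ± 0.25, and NFE2L2 RNA by −0.53 ± 0.21 (log2, SE). Both heat-shocked senescent libraries of GCLC lay above both heat-shocked young ones, and those of NFE2L2 below. Neither passed with edgeR (adjusted p = 0.375 and 0.403), and both did with the block (adjusted p = 0.0375 and 0.0385), under which 13.7% of all genes were called (8.12% higher, 5.62% lower). So 0 of 9 RNAs passed, with 2 at an unadjusted p below 0.05 (11.5% of all genes) and 0 by DESeq2, against 0% of all genes. In footprints 0 of 9 passed, with 1 at an unadjusted p below 0.05 (13% of all genes) and 0 by DESeq2, against 0.00886% of all genes; that 1 was NQO1, with a difference of 0.40 ± 0.17 (adjusted p = 0.371). In efficiency 0 of 9 genes passed between the states with edgeR, in control cells (0.00896% of all genes) and under heat shock (0% of all genes), with 0 at an unadjusted p below 0.05 and 0 by DESeq2 in both.

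The heat response itself was compared between the states as senescent minus young. In RNA 0 of 9 genes passed with edgeR, and 0% of all genes (0.00759% with the block); in footprints 0 of 9 and 0%; in efficiency 0 of 9 and 0.00896%. No member reached an unadjusted p below 0.05 in these, and DESeq2 called 0 members in each. Differences ran from −0.33 ± 0.30 for NFE2L2 to 0.28 ± 0.35 for GCLC in RNA, and from −0.25 ± 0.65 for SRXN1 to 0.14 ± 0.41 for KEAP1 in footprints. With an SE of 0.38 on the log2 scale for HMOX1 RNA, a modest difference in its response was not detectable with 2 libraries a group.

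**Figure D4:**
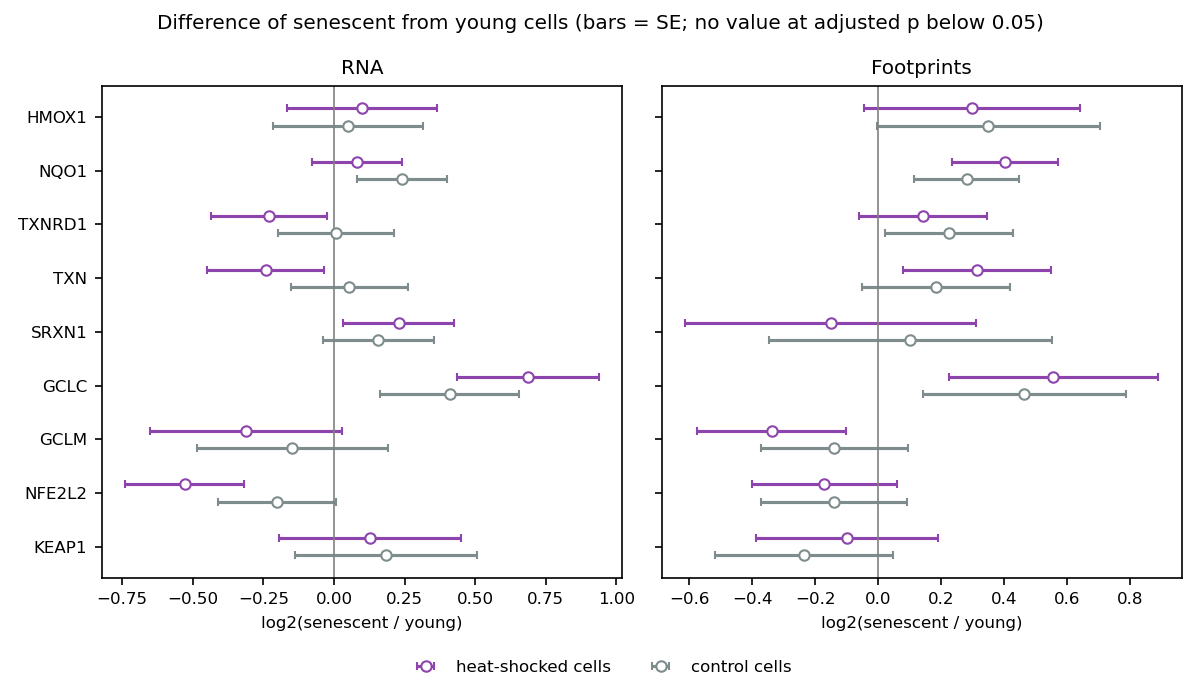
Difference of senescent from young cells in RNA (left) and footprints (right), as log2 of senescent over young with its SE; purple is heat-shocked and grey is control cells. No point passed, and GCLC in RNA under heat shock lies farthest from 0 at 0.69.

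Other genes of the pathway were read from 4 lists chosen with these data known: 26 other NRF2 targets, 11 genes of NRF2 control, 7 of heme handling and 8 thioredoxin and glutathione partners. In footprints of heat-shocked cells the ferritin subunits, which store iron, rose by more than any member. FTH1 held 1141 and 1011 CPM in heat-shocked senescent cells, against 193 and 175 CPM in controls, and 1229 and 1141 CPM in heat-shocked young cells, against 212 and 228 CPM in controls. Its footprints rose by 2.55 ± 0.18 in senescent and 2.43 ± 0.18 in young cells (log2, SE; edgeR adjusted p = 3.71e-04 and 4.47e-04), and its RNA differed by 0.09 ± 0.19 and 0.10 ± 0.19. FTL footprints rose by 2.05 ± 0.24 and 2.48 ± 0.24 (adjusted p = 0.00343 and 0.00204). Efficiency rose for both, by 2.46 ± 0.26 in senescent and 2.33 ± 0.26 in young cells for FTH1 (adjusted p = 7.82e-04 and 0.00222) and by 1.66 ± 0.29 and 2.25 ± 0.29 for FTL (adjusted p = 0.0119 and 0.00533). The young FTL efficiency was lost without young heat shock RNA replicate 2 (adjusted p = 0.0538), without young control footprint replicate 1 (0.0777) and with the young control footprint libraries summed (0.063).

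Among the other NRF2 targets, 2 of 23 tested rose in footprints and 1 fell in senescent cells, where 3.12% of all genes were called higher and 5.24% lower (median 0.48 over the list and 0.03 over all genes, log2). In young cells 2 rose and 0 fell, where 0.771% of all genes were called higher and 0.381% lower (median 0.36 against −0.01). The 1 that fell was SLC7A11, the cystine importer that feeds glutathione synthesis, with 48.8 and 39.3 CPM in heat-shocked senescent cells, against 108 and 106 CPM in controls, a change of −1.28 ± 0.26 (edgeR adjusted p = 0.0229). Its RNA lay lower as well, by −1.25 ± 0.34 (adjusted p = 0.246, with the block 0.0409). In heme handling 1 of 6 tested rose in senescent cells and 0 in young cells: ALAS1, the first enzyme of heme synthesis, with 111 and 110 CPM in heat-shocked senescent cells, against 61.8 and 47.5 CPM in controls (1.01 ± 0.21; adjusted p = 0.0257), and 98.9 and 117 CPM in heat-shocked young cells, against 53.8 and 50.4 CPM in controls (1.05 ± 0.21; adjusted p = 0.0554). ALAS1 RNA differed by 0.73 ± 0.20 in senescent and 1.04 ± 0.20 in young cells (adjusted p = 0.24 and 0.0547, with the block 0.0278 and 0.00497).

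Of the 8 thioredoxin and glutathione partners 1 rose in senescent footprints, PRDX2, a cytosolic peroxiredoxin, by 0.95 ± 0.18 (log2, SE; edgeR adjusted p = 0.021), and 0 in young cells. Of the 11 genes of NRF2 control 1 fell in senescent footprints, SYVN1, a ubiquitin ligase known to act on NRF2, by −0.78 ± 0.20 (adjusted p = 0.0467), and 0 in young cells. Of all genes 8.35% were called in senescent footprints (3.12% higher, 5.24% lower). Beside these shares stand 1 of 6 and 1 of 8 called higher and 1 of 11 called lower. Each is 1 gene of a short list, and no excess over these shares was tested. The senescent calls of SLC7A11, ALAS1, PRDX2 and SYVN1 were sensitive to single libraries: the first 3 were each lost without either senescent control library, senescent heat shock replicate 2 or either young control library (adjusted p 0.0542 to 0.0947), and SYVN1 also without senescent heat shock replicate 1 (adjusted p 0.0533 to 0.146 over the 6 fits). All 4 were lost with the young control libraries summed (adjusted p 0.0656 to 0.146), and ALAS1 also with library size alone (0.74; adjusted p = 0.0573). In RNA no gene of the 4 lists passed in any comparison with edgeR; DESeq2 called ALAS1 in both states after heat shock (adjusted p = 0.0264 in senescent and 9.2e-05 in young cells) and SLC7A11 in senescent cells (adjusted p = 0.023).

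Between senescent and young cells, TXNIP, which binds and inhibits thioredoxin, differed most in RNA among the partners. It held 181 and 225 CPM in senescent control cells, against 72.6 and 25.4 CPM in young control cells, and 198 and 208 CPM in heat-shocked senescent cells, against 90.6 and 36.1 CPM in heat-shocked young cells. Senescent libraries lay above all young ones, and replicate 1 lay above replicate 2 in both young groups. The difference in control cells was 2.05 ± 0.54 (log2, SE; edgeR adjusted p = 0.33, with the block 0.0371, DESeq2 0.0088). EPHX1, an epoxide hydrolase among the NRF2 targets, differed by 0.76 ± 0.19 in control cells and 0.85 ± 0.19 under heat shock (edgeR adjusted p = 0.287 and 0.183, with the block 0.0231 and 0.0111). Of the 24 NRF2 targets tested in RNA, the block called 4 higher and 0 lower in senescent control cells (2.15% and 1.57% of all genes). In heat-shocked senescent cells it called 5 higher and 2 lower (8.12% and 5.62% of all genes). Without the block edgeR called 0 in both. The 2 lower were PIR at −1.16 ± 0.30 and UGDH at −0.80 ± 0.28 (adjusted p = 0.26 and 0.366, with the block 0.0163 and 0.0157).

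**Figure D5:**
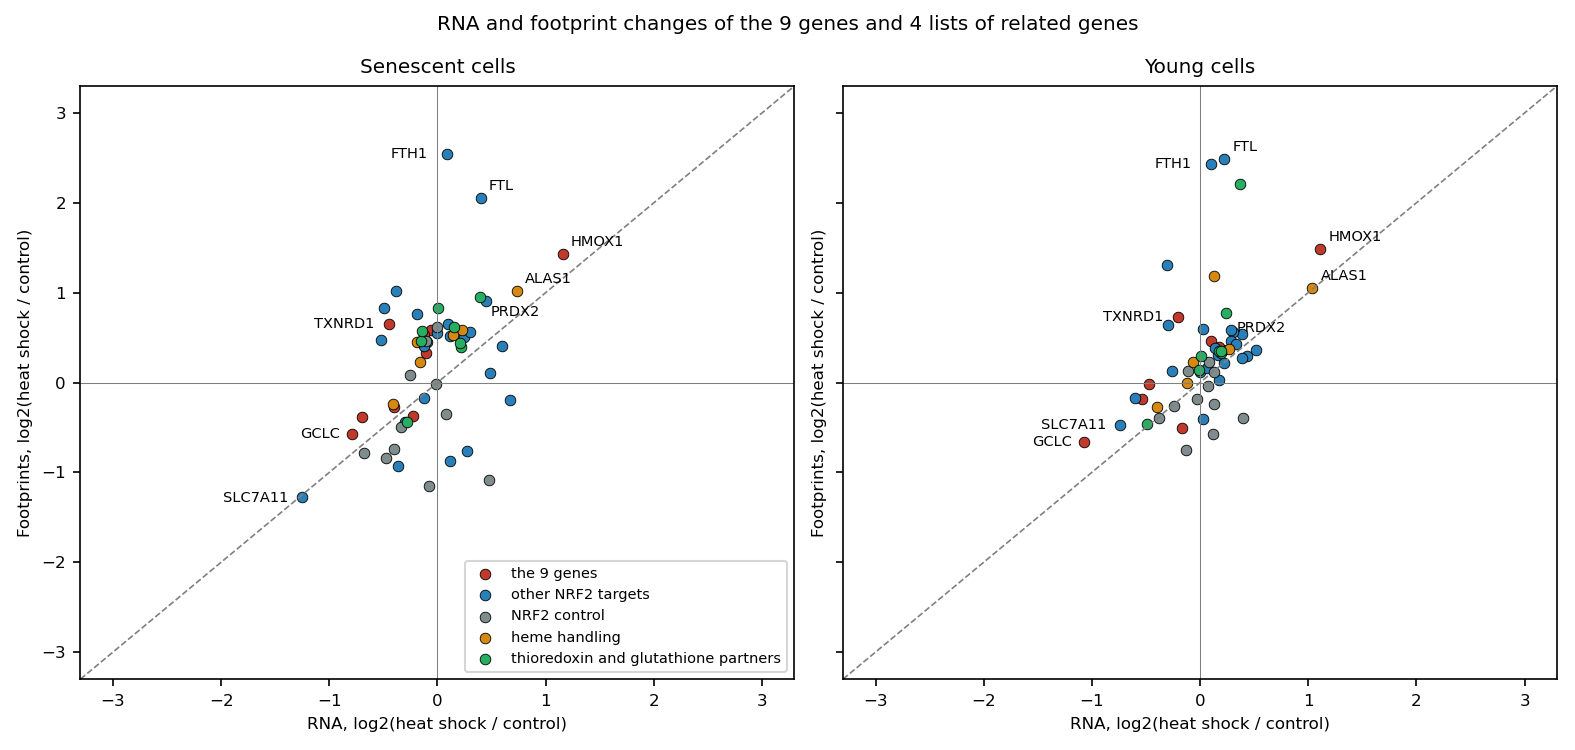
Change on heat shock in RNA (horizontal) and in footprints (vertical), log2 of heat shock over control, for the 9 genes and the 4 lists; the dashed line marks equal change in both. FTH1 and FTL lie far above the line at footprint changes of 2.55 and 2.05 in senescent cells, while HMOX1, ALAS1 and GCLC lie near it.

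The genes whose pattern was most like that of HMOX1 were found by Pearson correlation over the 16 libraries of log2(CPM + 1), centred within each assay, among 8146 genes. They were FOS (r = 0.94), LAMB2 (0.93), ACADVL (0.93), TLN1 (0.93) and IER5 (0.93). The libraries share treatment and depth, so these values are a description. FOS, an early response transcription factor, differed on heat shock by 5.40 in senescent and 3.91 in young RNA on the log2 scale, and IER5 by 2.83 and 2.66. The RNA changes of the others were smaller, 0.65 and 0.72 for LAMB2, 0.31 and 0.37 for ACADVL, and 0.94 and 0.64 for TLN1. Of the other 8 members NQO1 was nearest to HMOX1 (r = 0.67, rank 639), followed by TXN (0.54), TXNRD1 (0.36) and NFE2L2 (0.36). SRXN1 (−0.34), KEAP1 (−0.49), GCLM (−0.68) and GCLC (−0.72) ran the other way, so the 2 subunits of the glutathione enzyme were the members least like HMOX1.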

How the data were processed

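The 16 libraries of WI-38 RNA-seq and Ribo-seq were analysed from gene tables. The expected counts that the authors deposited, estimated by RSEM, held whole numbers only. A rounding step was applied before the tests, which leaves whole numbers unchanged. The TPM values deposited with them served only to compare genes. STAR, RSEM, Bowtie2 and hg19 are listed, with no roles, in the submitters' processing notes. Gene annotation: not given in the sources used here. The labels' protocols give TruSeq RNA for transcripts, and RNase If with a sucrose cushion for footprints.

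Low genes were removed by filterByExpr and libraries scaled by TMM. Tests used the quasi-likelihood F test of edgeR 4.0.16 (R 4.3.3) with 1 mean per group and a spread shared across groups, on 4 residual degrees of freedom within an assay and 8 over both. They covered 13177 genes in RNA, 11288 in footprints and 11166 in efficiency, which is the footprint contrast minus the RNA contrast in 1 fit. P-values were adjusted over all genes tested (Benjamini-Hochberg) and called below 0.05. SE is the size of the log2 change over the square root of F, an approximation. Alternatives were DESeq2 1.42.0, RLE scaling, library size alone, no filter, the replicate block and leaving out each library; summing the young control footprint libraries was chosen after seeing the data. The code was tested on simulated data.

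Replicate numbers come from the labels. Same-numbered RNA libraries deviated together from their group means in all 6 pairs of groups (r = 0.59 to 0.81 over 13177 genes), so blocked values stand beside RNA results. In footprints r was 0.29 to 0.37 over 11288 genes between groups other than young control. Between young control and each other footprint group it was −0.05 to −0.02. Footprint libraries were not treated as paired. All 9 members were named, and from each of the 4 lists the called genes, at most 4, that averaged 10 CPM or more in a group; TXNIP, EPHX1, PIR and UGDH were named after their values were seen. The members and lists were chosen with earlier results of these data known.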

Additional observations from a re-analysis of the deposited data

Results flagged for a closer look

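NQO1 RNA was lower in both heat-shocked senescent libraries than in both senescent controls and higher in both heat-shocked young libraries than in both young controls. The fitted changes had opposite signs, −0.06 ± 0.16 in senescent and 0.10 ± 0.16 in young cells (log2, SE), each smaller than its error. In senescent cells the separation was narrow, with replicate 1 at 428.8 CPM after heat shock and 429.3 CPM in controls. The difference of the responses, senescent minus young, was −0.16 ± 0.23 (log2, SE; edgeR adjusted p = 1), smaller than its error. With library size alone the young change was −0.18, below 0 as in senescent cells.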

How the results depend on the processing

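Counts of the 9 genes called changed as follows. With the replicate block, RNA gave 3 in heat-shocked senescent and 3 in heat-shocked young cells (6.28% and 8.77% of all genes). It gave 2 in senescent against young under heat (13.7%). Blocked footprints after heat shock gave 3 in senescent cells (HMOX1, NQO1 and TXNRD1) and 1 in young cells (HMOX1). There 1667 and 330 of 11288 genes were called. Blocked efficiency gave 2 in senescent cells, where 1187 of 11166 genes were called. The block changed no other member count. Footprint libraries were not treated as paired in the main results. For senescent and young cells DESeq2 gave 1 and 2 in RNA (2.16% and 3.38% of all genes) and 2 and 2 in footprints (13.4% and 3.96%). It gave 2 in senescent efficiency (5.77%). Footprints after heat shock gave 1 in young cells without a filter, and 0 in senescent cells with library size alone or with the young control libraries summed. Leaving out a library gave 0 to 2 in senescent and 0 to 1 in young footprints, and 0 to 1 in senescent efficiency. RLE scaling changed no member count. Library size alone moved the median of all genes after heat shock by −0.22 in senescent and −0.28 in young RNA and by −0.28 and −0.27 in footprints. With it, RNA changes in young cells were −0.18 for NQO1, −0.061 for NFE2L2 and −0.11 for TXN, and HMOX1 between senescent and young control RNA was −0.033; with RLE scaling the young footprint change of SRXN1 was 0.00015. The cause was not tested.

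Leaving out single libraries turned the sign of small changes. In RNA after heat shock KEAP1 ran from −0.54 to 0.045 in senescent and −0.48 to 0.12 in young cells, TXN from −0.33 to 0.12 in senescent cells and NFE2L2 from −0.021 to 0.45 in young cells. In footprints SRXN1 ran from −0.80 to 0.18 and −0.68 to 0.41, and GCLM from −0.48 to 0.048 in young cells. In senescent efficiency GCLM ran from −0.049 to 0.85, HMOX1 from −0.43 to 0.70, GCLC from −0.46 to 0.61, KEAP1 from −0.42 to 0.17 and SRXN1 from −0.41 to 0.58, and in young efficiency NFE2L2 from −0.10 to 0.38 and SRXN1 from −0.21 to 0.88. For HMOX1 the difference of responses ran from −0.31 to 0.32 in RNA, −0.74 to 0.38 in footprints and −0.79 to 0.33 in efficiency. Its difference between senescent and young cells ran from −0.16 to 0.30 in control RNA and, under heat shock, from −0.24 to 0.38 in RNA, −0.40 to 0.72 in footprints and −0.49 to 0.63 in efficiency.

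Counts over all genes moved by more than 1.5 times. After heat shock in senescent and young cells, RNA calls were 76 and 150, with the block 828 and 1156, with DESeq2 285 and 445, without a filter 163 and 317, and without 1 library 14 to 64 and 34 to 121. Footprint calls were 943 and 130, with the block 1667 and 330, with DESeq2 1515 and 447, without a filter 1528 and 422, and without 1 library 239 to 1955 and 26 to 272. Efficiency calls were 260 and 10, with the block 1187 and 57, with DESeq2 644 and 47, with the young controls summed 148 and 5, and without 1 library 48 to 703 and 5 to 19. Between senescent and young cells, RNA calls in control and heat-shocked cells were 5 and 0, with the block 490 and 1811, with DESeq2 144 and 245, and without a filter 74 and 110. Footprint calls there were 0 and 1, with the block 27 and 18, with DESeq2 120 and 143, without a filter 118 and 112, and without 1 library 0 to 6 and 0 to 498 (498 without senescent heat shock replicate 1). Calls in senescent and young cells were 48 higher and 28 lower, and 88 higher and 62 lower, in RNA; with library size alone they were 41 and 53, and 60 and 134. In footprints they were 352 higher and 591 lower, and 87 higher and 43 lower; with library size alone 173 and 1180, and 68 and 169. Calls between senescent and young cells in efficiency, in control and heat-shocked cells, were 1 and 0, with the block 6 and 57, and with DESeq2 5 and 23. With 2 libraries a group and few footprints per library, small changes of low genes such as SRXN1 were not detectable.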
